A study of Mus musculus with 2 samples.

Results

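The small heat shock proteins were followed here through 7 genes, *Hspb1*, *Hspb2*, *Hspb3*, *Hspb6*, *Hspb7*, *Hspb8* and *Cryab*, of the 19465 genes counted in sections of healing mouse femurs. They were chosen by name as the members of the family that striated muscle is known for, with earlier results of these data known. All 7 had UMIs in both sections. The groups were Control (sham-loading) and Loaded (cyclic mechanical loading applied through an external fixator), with 1 section of 1 femur in each. Both mice were females of the BCR (bone cell reporter) line, in which eGFP and mCherry label the osteoblast protein Ibsp and the osteoclast protein Acp-5, so the Control mouse carried the reporters too. Both received a mid-diaphyseal femoral osteotomy at 12 weeks of age, had bridged the defect by week 3 and were euthanized at 17 weeks of age, 5 weeks after surgery. Expression was measured with the Visium assay for FFPE tissue, in which probe pairs bind the transcripts of a thin section over a grid of barcoded spots 100 μm apart, and each captured molecule is counted once as a UMI. A spot is a small region that can hold several cells of different types, or part of one.

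With 1 section in each group there is no replicate check, the section and the condition cannot be told apart, and no p-value is given. Intervals are exact at the 95% level and cover counting error only. Depth differed, with 1962 spots, 9002147 UMIs and a median of 2190 UMIs per spot in Control against 1436 spots, 4910716 UMIs and a median of 2630 in Loaded. Although the tissue is labelled femur, a list of 27 skeletal muscle genes took 30.1% of all Control UMIs and 18.95% of all Loaded UMIs. The authors' list of bone spots covered 131 Control and 146 Loaded spots, and the muscle list still took 17.0% and 8.99% of the UMIs there. This list is of bone at the fracture site between the inner pins of the fixator, so bone beyond those pins is not in it. The sections shared 557 spot barcodes, which come from the fixed barcode grid of the slides and not from shared tissue.

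Small heat shock proteins are chaperones that bind partly unfolded proteins without using ATP and keep them from aggregating until other chaperones refold them or autophagy removes them. Skeletal and cardiac muscle are known for high levels of several of them, which bind the Z-disc, the actin filaments, the giant protein titin and the desmin network under contraction or strain. Among the 7, *Cryab* (αB-crystallin) protects desmin and titin, *Hspb1* (Hsp27 in humans, Hsp25 in mice) regulates actin filaments, *Hspb6* (Hsp20) is a phosphorylated partner of actin regulation in muscle, *Hspb7* (cvHsp) is a striated muscle protein that binds filamin and actin, *Hspb8* (Hsp22) acts with Bag3 in chaperone-assisted autophagy, and *Hspb2* binds the kinase Dmpk and forms complexes with *Hspb3*.

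By GENCODE M21 (GRCm38), *Hspb7* (ENSMUSG00000006221) lies on chromosome 4, *Hspb8* (ENSMUSG00000041548) and *Hspb1* (ENSMUSG00000004951) on chromosome 5, *Hspb6* (ENSMUSG00000036854) on chromosome 7 and *Hspb3* (ENSMUSG00000051456) on chromosome 13. *Hspb2* (ENSMUSG00000038086, chr9:50751078-50752354, minus strand) and *Cryab* (ENSMUSG00000032060, chr9:50751325-50756636, plus strand) are neighbors whose annotated spans overlap by 1030 bases on opposite strands, and where the assay's probes lie within them was not used here. The RefSeq promoter table (GRCm38.p6) held 6 start sites for 5 of the 7 members, and none of them was for *Hspb2* or *Cryab*. The sequence before the start is shown for *Hspb7* and *Hspb6*, which differed strongly between fibre classes, and for *Hspb8*, which differed less. It is also shown for *Hspb1*, which held the most heat shock element pairs. Each run is 250 bases ending at the base before the start, except *Hspb6*, which is its second start site and was shortened to 217 bases to leave out annotated untranslated bases. Capitals mark matches, on either strand, to a pair of heat shock element units (GAANNTTC or TTCNNGAA) or to an E-box (CANNTG).
*Hspb7*, chr4:141420529-141420778, plus strand: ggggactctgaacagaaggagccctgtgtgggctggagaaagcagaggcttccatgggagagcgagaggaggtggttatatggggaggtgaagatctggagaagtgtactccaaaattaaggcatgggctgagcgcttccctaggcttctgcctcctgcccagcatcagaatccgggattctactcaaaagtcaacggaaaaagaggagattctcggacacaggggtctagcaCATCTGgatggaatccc
*Hspb6*, chr7:30553051-30553267, plus strand: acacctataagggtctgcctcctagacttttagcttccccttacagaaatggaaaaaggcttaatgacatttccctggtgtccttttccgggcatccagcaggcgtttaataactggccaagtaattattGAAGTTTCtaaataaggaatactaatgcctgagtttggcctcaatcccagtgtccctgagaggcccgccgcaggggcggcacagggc
*Hspb8*, chr5:116422865-116423114, minus strand: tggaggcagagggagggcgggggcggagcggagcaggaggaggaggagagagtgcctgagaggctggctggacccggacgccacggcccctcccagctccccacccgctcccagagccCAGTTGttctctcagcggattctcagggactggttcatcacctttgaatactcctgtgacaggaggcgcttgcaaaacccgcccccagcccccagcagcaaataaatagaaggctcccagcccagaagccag
*Hspb1*, chr5:135887669-135887918, plus strand: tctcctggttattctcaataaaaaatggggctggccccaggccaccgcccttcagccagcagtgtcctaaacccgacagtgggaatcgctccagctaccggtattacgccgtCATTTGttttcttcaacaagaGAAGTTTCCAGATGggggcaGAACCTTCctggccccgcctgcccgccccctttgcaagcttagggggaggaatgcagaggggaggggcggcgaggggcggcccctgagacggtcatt
*Hspb1* held 2 heat shock element pairs, which begin 117 and 97 bases before the start, and 2 E-boxes, at 138 and 109 bases, the latter directly after the first pair. *Hspb6* held 1 pair, 120 bases before its second start, and its first start site had no match to either motif. That second start lies 1123 bases after the annotated gene start, so the printed *Hspb6* window is inside the annotated gene. *Hspb3*, whose sequence is not shown, held 1 pair 224 bases before its start and 2 E-boxes at 76 and 54 bases. *Hspb7* held 1 E-box 17 bases before its start and *Hspb8* 1 E-box 132 bases before its start, with no heat shock element pair in either window. Of the 32841 windows of this length in the table, 12.8% held such a pair and 66.2% held an E-box, so an E-box is a common match. The MEF2 box and the CArG box, both bound by muscle transcription factors, were matched in 2.92% and 1.47% of all windows, and among the members only *Hspb3* held one, a MEF2 box 12 bases before its start.

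Over all spots, *Hspb6* had 12030 UMIs in the Control section and 10680 in the Loaded section, which is 13.4 (95% interval, 13.1 to 13.6) and 21.8 (21.3 to 22.2) per 10000 UMIs. *Cryab* had 9973 and 9873 UMIs, or 11.1 (10.9 to 11.3) and 20.1 (19.7 to 20.5) per 10000. *Hspb7* had 6493 and 9051 UMIs, or 7.21 (7.04 to 7.39) and 18.4 (18.1 to 18.8) per 10000. These 3 genes were thus higher per UMI in the Loaded section, beyond counting error. *Hspb1* was also higher there, with 1085 and 914 UMIs or 1.205 (1.135 to 1.279) and 1.86 (1.74 to 1.99) per 10000. *Hspb8*, with 3586 and 1395 UMIs, was lower there, at 3.98 (3.85 to 4.12) and 2.84 (2.69 to 2.99) per 10000. *Hspb2* was lower as well, with 1007 and 372 UMIs or 1.12 (1.05 to 1.19) and 0.758 (0.683 to 0.839) per 10000. *Hspb3*, with 184 and 117 UMIs, had overlapping intervals of 0.204 (0.176 to 0.236) and 0.238 (0.197 to 0.286) per 10000. Levels are compared within a gene and not between genes, since each gene was read through its own probes. These values over all spots were not set against all genes, so how common such differences are is not given. The muscle list, at 30.1% of all Control UMIs and 18.95% of all Loaded UMIs, differed as well. In these bulk spots, fewer cells of a type and less RNA per cell cannot be told apart.

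**Figure D1:**
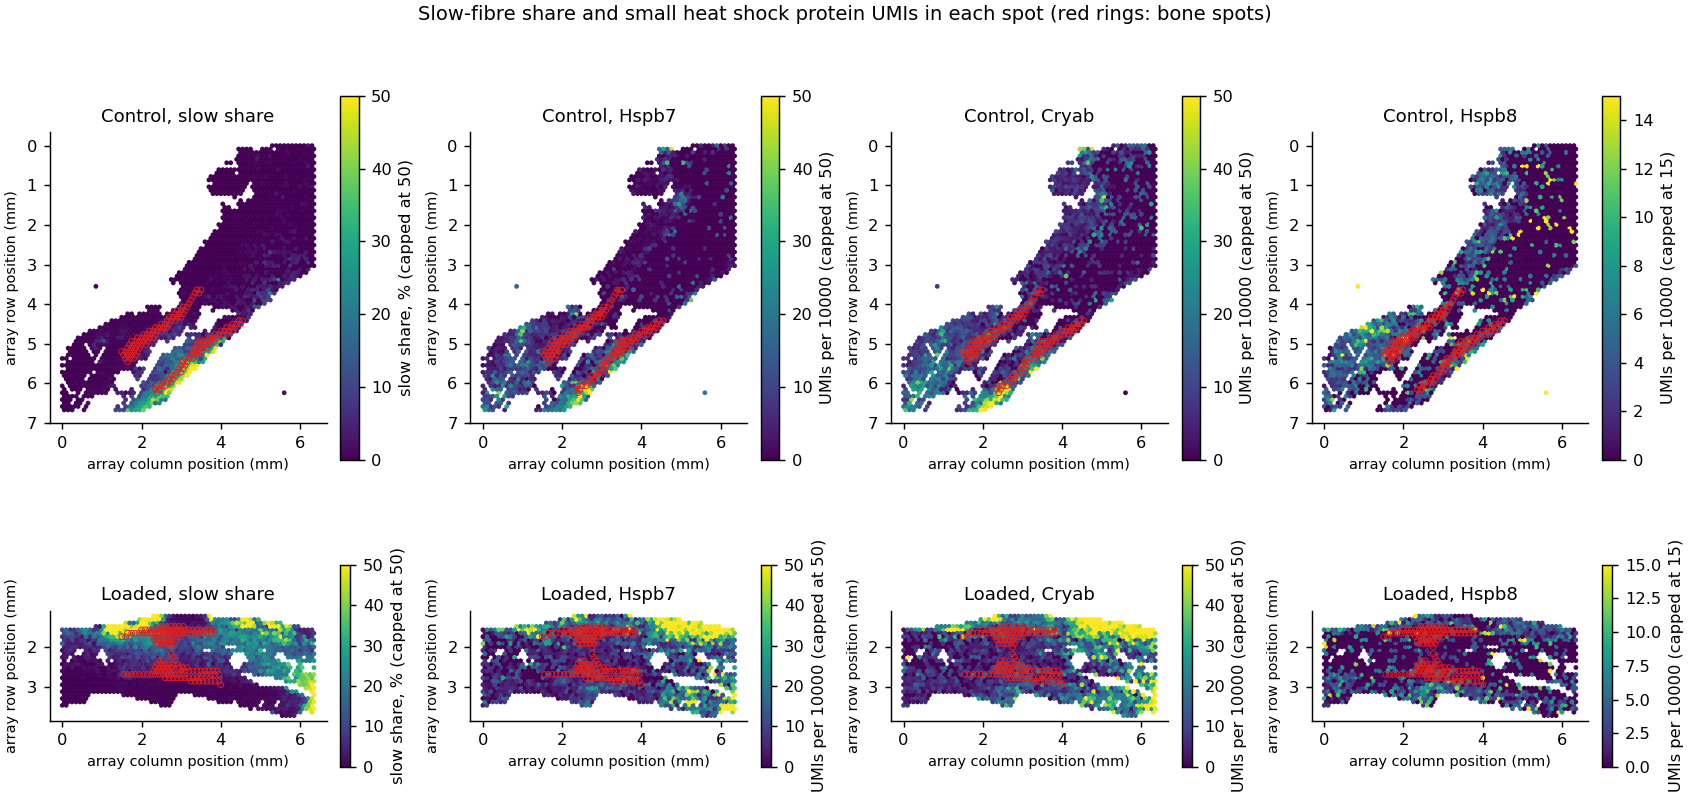
Maps of both sections, with 1 point for each spot at its array position in mm (rows, Control and Loaded), colored by the slow share in percent and by *Hspb7*, *Cryab* and *Hspb8* in UMIs per 10000; red rings mark the bone spots. *Hspb7* and *Cryab* are highest in the strips where the slow share is high, along the lower edge of the Control section and the upper and right edges of the Loaded section, and *Hspb8* shows no such strips.

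The levels of *Hspb6*, *Cryab*, *Hspb7* and *Hspb8* were lowest in spots with little muscle in both sections, whereas *Hspb1* had no such order in Control. Spots were classed by the share of their UMIs in the 27 muscle genes, none of which is a member. In the Control section, *Hspb6* was at 1.58 (1.05 to 2.28) per 10000 in the 50 spots with a muscle share under 2%, at 3.12 from 2 to 5%, at 7.58 from 5 to 10%, at 16.8 from 10 to 20% and at 14.98 from 20% up. *Cryab* went from 2.59 to 4.28, 9.31, 16.3 and 11.5 over the same classes, and *Hspb7* from 1.92 to 3.18, 7.75, 12.6 and 6.92. All 3 were lower in the spots with the highest muscle share than in those with 10 to 20%, by intervals that do not meet. *Hspb8* had another order, at 1.07, 1.39, 2.63, 3.01 and 4.62 per 10000, where the first 2 classes and the next 2 overlapped in their intervals and the last stood above the rest. *Hspb2* had the same order, and had 0 UMIs in the class under 2% (at most 0.169 per 10000 by a floor of 3 counts) and 1.26 in the class from 20% up. *Hspb1* was at 1.58 per 10000 under 2%, 0.862 from 2 to 5%, 1.76 from 10 to 20% and 1.10 from 20% up. In the Loaded section 1 spot was under 2%, and from the class of 2 to 5% to that of 20% and over *Hspb6* went from 4.15 to 28.4, *Cryab* from 4.87 to 24.7, *Hspb7* from 5.49 to 22.3, and *Hspb8* from 1.12 to 3.67 per 10000. *Hspb1* went from 0.625 to 2.44 in the class from 10 to 20%. There too, *Hspb7* and *Cryab* were lower from 20% up than from 10 to 20%, where they were at 24.1 and 26.3, while *Hspb6* was at 26.9 and 28.4.

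Outside muscle, the 50 spots richest in the genes of another cell type, among spots with a muscle share under 10%, gave levels that differed by cell type and section. The sets of different cell types can share spots and can include bone spots, so their levels are not separate measurements. In the Control section, *Cryab* was at 3.10 (1.96 to 4.64) per 10000 in the spots richest in osteoblast genes, 2.07 in osteocyte-rich, 3.53 in chondrocyte-rich, 2.32 in granulocyte-rich, 3.69 in erythroid-rich and 3.22 in adipocyte-rich spots, and these levels had overlapping intervals. It was higher, beyond these intervals, in spots rich in endothelial (8.60), smooth muscle (8.99), tendon (12.1) and Schwann cell genes (15.2), with macrophage-rich spots (6.30, 5.06 to 7.74) in between. *Hspb7* had a similar split in Control, with 0.882 (chondrocyte-rich) to 3.99 (erythroid-rich) in the first set and 9.03 (tendon-rich) to 11.0 (Schwann-rich) in the second. Its first set did not all overlap, since erythroid-rich spots (2.85 to 5.43) stood above chondrocyte-rich spots (0.286 to 2.06). They overlapped with macrophage-rich spots (3.20 to 5.40). Some levels of the second set passed those of muscle spots: *Hspb7*, at 7.57 (7.37 to 7.78) in muscle, was above that in Schwann-rich (9.65 to 12.6), endothelium-rich (9.91, 8.11 to 11.98) and smooth muscle-rich spots (9.30, 7.88 to 10.9), although the 25 richest endothelial spots were at 5.41 (3.50 to 7.98), and *Cryab*, at 11.9 (11.7 to 12.2) in muscle, was above it in Schwann-rich spots (13.6 to 17.0). *Hspb6* stayed below its 15.02 in muscle, at 1.59 to 10.9, and *Hspb8* was at 0.732 to 3.30 against 4.44. The fibre genes in the second set were slower, with a slow share (the slow part of the UMIs of slow and fast fibre genes) of 14.8 to 26.2% against 0.246 to 7.40% in the first, and its part in these levels was not tested. *Hspb1* too was above its 1.15 (1.08 to 1.24) in muscle spots, at 2.63 (1.90 to 3.54) per 10000 in smooth muscle-rich, 2.37 in Schwann-rich, 2.34 (1.60 to 3.31) in adipocyte-rich and 1.89 (1.245 to 2.75) in macrophage-rich spots. In the Loaded section *Hspb7* was at 4.76 to 15.9, *Cryab* at 3.54 to 14.7 and *Hspb6* at 5.02 to 11.9 over the same cell types, all below their levels over all muscle spots of 23.8, 26.1 and 28.8. The fast muscle spots of Loaded, defined below, were lower, with *Hspb7* at 9.82 (9.335 to 10.33) and *Cryab* at 11.7 (11.17 to 12.25). *Hspb7* was above that in tendon-rich (14.2 to 17.8), endothelium-rich (11.6 to 15.45), macrophage-rich (11.12 to 14.25) and Schwann-rich spots (10.43 to 14.57). *Cryab* was above it in endothelium-rich (12.82 to 16.85) and macrophage-rich spots (13.06 to 16.43), while *Hspb6* stayed below its 15.2 in fast spots. The split of Control was not kept there, since smooth muscle-rich spots, with *Cryab* at 8.37 (6.75 to 10.25) and *Hspb7* at 9.99 (8.21 to 12.0), overlapped with adipocyte-rich (10.07 and 10.5) and osteocyte-rich spots (9.06 and 8.36). *Hspb1* was at 1.26 (0.689 to 2.11) in smooth muscle-rich and 1.16 (0.600 to 2.03) in adipocyte-rich spots of Loaded and at 2.21 (2.05 to 2.38) in muscle spots. Granulocyte-rich spots, whose cells are not known for these proteins, were at 3.54 to 5.02 per 10000 there for *Cryab*, *Hspb7* and *Hspb6*, with a muscle share of 4.47%.

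The share of spots with a UMI was compared at equal depth. With every spot thinned to 1000 UMIs, *Hspb7* was found in 40.2% (37.0 to 43.5) of 888 Control muscle spots and in 69.3% (65.8 to 72.7) of 710 Loaded muscle spots, with 166 and 44 shallower spots left out. Without thinning these shares were 62.4% and 87.5%, at a median of 4654 and 3317 UMIs per spot. *Hspb8* was found in 28.6% (25.7 to 31.7) and 26.9% (23.7 to 30.3) of the thinned muscle spots and in 63.0% and 61.0% without thinning. The thinned shares of *Hspb8* overlap, also over all spots (22.5% and 21.1%), whereas its level per 10000 UMIs was lower in Loaded in both. In granulocyte-rich spots, thinned in the same way, *Hspb7* was found in 14.9% (6.204 to 28.31) of 47 Control and 36.0% (22.9 to 50.8) of 50 Loaded spots, with a median of 1628 and 3018 UMIs before thinning. Granulocytes are not known to express *Hspb7*, but these spots also held UMIs of the muscle list, so their shares are not a plain background. Among all spots outside bone with a muscle share under 10%, *Hspb7* was found in 21.5% (18.3 to 24.95) of 623 in Control. In Loaded it was found in 56.8% (52.4 to 61.1) of 514 such spots. The shares of all muscle spots lay above those of both sets in both sections. In the fast muscle spots, defined below, *Hspb7* was found in 19.6% (15.8 to 23.9) in Control, which overlaps with both sets. In Loaded fast spots it was found in 56.7% (51.4 to 61.8), above the granulocyte-rich spots but overlapping with all spots of low muscle share.

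Fibre type was then compared within muscle. Muscle spots are those outside the bone spots with at least 500 UMIs, 250 genes and a muscle share of 10% (1054 Control and 754 Loaded spots), and the slow share rests on 6 slow and 10 fast fibre genes. Slow-fibre-rich spots are the top 10% by slow share and fast spots the lower 50%. The classes are not matched between sections, because slow-fibre-rich spots had slow shares of 2.08 to 69.95% (105 spots) in the Control section and of 38.2 to 79.0% (75 spots) in the Loaded section. By estimate, *Hspb7* had the largest difference of the 7 members in both sections. It was at 2.81 per 10000 in fast and 20.5 in slow-fibre-rich Control spots and at 9.82 and 44.6 in Loaded spots. Its log2 ratio was 2.87 (2.74 to 3.00) in Control, above 99.6% of the 6646 genes with at least 50 UMIs, and 2.18 (2.09 to 2.28) in Loaded. *Cryab* went from 7.54 to 25.1 per 10000 in Control and from 11.7 to 47.9 in Loaded, a log2 ratio of 1.74 (1.64 to 1.83) and 2.04 (1.95 to 2.13). In Loaded the intervals of *Hspb7* and *Cryab* thus overlap. *Hspb6* went from 9.49 to 25.5 and from 15.2 to 52.2 per 10000, a log2 ratio of 1.43 (1.34 to 1.52) and 1.78 (1.69 to 1.86). *Hspb1* went from 0.916 to 2.12 and from 1.60 to 3.37 per 10000, a log2 ratio of 1.21 (0.90 to 1.52) and 1.07 (0.78 to 1.37). The estimates of these 4 genes were thus all at least 2-fold higher in slow-fibre-rich spots of both sections.

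**Figure D2:**
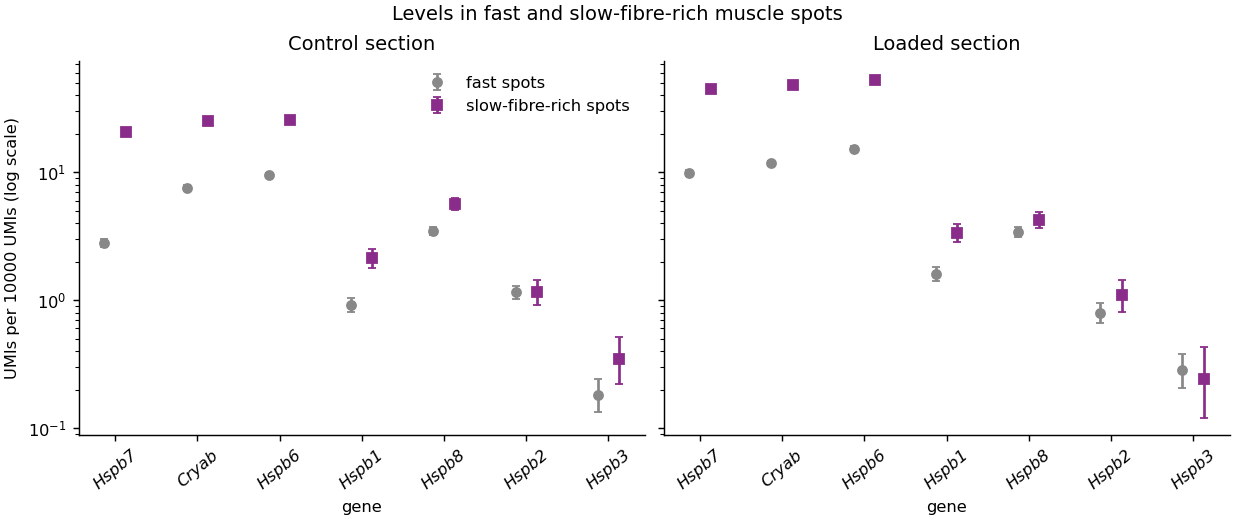
Levels of the 7 members, in UMIs per 10000 UMIs on a log axis, in fast (grey circles) and slow-fibre-rich (purple squares) muscle spots of the Control and Loaded sections; bars are exact 95% intervals. *Hspb7*, *Cryab*, *Hspb6* and *Hspb1* stand higher in slow-fibre-rich spots of both sections, while the squares and circles of *Hspb2* lie at 1.16 and 1.15 in Control.

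The other 3 members differed less or not beyond counting error. *Hspb8* went from 3.47 to 5.64 per 10000 in Control, a log2 ratio of 0.70 (0.52 to 0.88), and from 3.42 to 4.22 in Loaded, a log2 ratio of 0.30 (0.06 to 0.55). *Hspb2* was at 1.15 and 1.16 per 10000 in Control, a log2 ratio of 0.01 (-0.37 to 0.38), and at 0.796 and 1.09 in Loaded, a log2 ratio of 0.46 (-0.05 to 0.94). *Hspb3* rested on 47 and 23 UMIs in Control, with a log2 ratio of 0.94 (0.15 to 1.69), and on 44 and 11 in Loaded, with a log2 ratio of -0.23 (-1.34 to 0.74). A log2 ratio of at least 0.5 was reached by 6 of 7 members in Control, against 41.2% of all genes tested, and by 4 of 7 in Loaded, against 32.7%. None of the 7 was as much lower, against 6.17% and 7.82% of all genes. The median of the members was 1.21 in Control and 1.07 in Loaded, and that of all genes 0.38 and 0.29. The scaling sets this zero: scran size factors moved every ratio by -0.43 in Control and -0.29 in Loaded, totals without the 20 most abundant genes by -0.39 and -0.36, and muscle list UMIs in place of totals by 0.65 and 0.88. Under these scalings *Hspb7*, *Cryab*, *Hspb6* and *Hspb1* stayed above 0 in both sections and *Hspb8* did so in Control, whereas the sign of *Hspb2* changed in Control (-0.42 by scran and 0.66 by the muscle list), and in Loaded that of *Hspb3* changed with muscle list UMIs (0.65) and that of *Hspb8* without the 20 most abundant genes (-0.05).

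The difference was also seen within parts of a section. Slow-fibre-rich and fast spots were both frequent in 1 quadrant of the Control section and 2 of the Loaded section. In the lower left of the Control section, where 95 of the 105 slow-fibre-rich spots lie, *Hspb7* was at 4.32 and 20.7 per 10000, *Cryab* at 9.51 and 25.9 and *Hspb6* at 16.1 and 26.2 in fast and slow-fibre-rich spots. The log2 ratio of *Hspb6* there was 0.70 (0.58 to 0.83), below the 1.43 of the whole section, and fast spots in the upper right held 7.98 per 10000 of it. In the Loaded section, the log2 ratio of *Hspb7* was 2.01 (1.81 to 2.21) in the upper left and 1.35 (1.11 to 1.59) in the lower right, and that of *Cryab* was 2.11 (1.92 to 2.30) and 1.36 (1.14 to 1.58). *Hspb8* differed between these quadrants in sign, at 0.89 (0.48 to 1.29) and -0.31 (-1.31 to 0.56), the latter with 12 UMIs in slow-fibre-rich spots.

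Fast spots were not uniform either. *Myh2*, the myosin of fast oxidative fibres, is in neither the slow nor the fast list, and was taken up because its levels across these same spots were among the most like those of *Hspb6*, *Cryab* and *Hspb7*, so the values below describe that likeness and are no separate evidence of it. Among spots with a slow share under 0.5%, the fifth with the highest *Myh2* share (*Myh2* UMIs over those of *Myh2*, *Myh1* and *Myh4*) was compared with the fifth with the lowest. In the Control section, *Hspb6* was at 23.6 and 7.56 per 10000, *Cryab* at 16.95 and 6.51 and *Hspb7* at 10.8 and 2.02, log2 ratios of 1.64 (1.502 to 1.786), 1.38 (1.23 to 1.54) and 2.42 (2.16 to 2.70). In the Loaded section the log2 ratios were 1.54 (1.278 to 1.801), 0.99 (0.71 to 1.27) and 1.04 (0.73 to 1.36). *Hspb8* and *Hspb1* had log2 ratios of 0.28 in Control, and 0.30 (-0.23 to 0.82) and 0.51 (-0.27 to 1.31) in Loaded. *Hspb2* had 0.21 (-0.21 to 0.65) and -0.32 (-1.44 to 0.74).

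Across single muscle spots, the genes most like each member were the same few for most of them. Likeness is the mean over both sections of Pearson's r on log2(UMIs per 10000 + 1), over 1054 and 754 spots, among 1097 genes with at least 0.5 UMI per muscle spot in both sections. For *Hspb7* the first 3 were *Lmod2* (a thin filament leiomodin, 0.62), *Myh2* (0.59) and *Actn2* (Z-disc α-actinin, 0.59), for *Cryab* *Myh2* (0.55), *Hspb7* (0.54) and *Actn2* (0.54), and for *Hspb6* *Myh2* (0.53), *Mb* (myoglobin, 0.52) and *Actn2* (0.52). *Hspb1* was most like *Hspb7* (0.27), *Mb* (0.24) and *Lmod2* (0.24). *Hspb8* stood apart, being most like the Z-disc gene *Myot* (0.30), skeletal actin *Acta1* (0.30) and the mitochondrial gene *Ndufb10* (0.30). With the slow share itself, r was 0.41 in Control and 0.50 in Loaded for *Hspb7*, 0.31 and 0.49 for *Cryab*, 0.27 and 0.43 for *Hspb6*, 0.17 and 0.22 for *Hspb1*, and 0.04 and 0.12 for *Hspb8*. Spots of 1 section share a library and neighboring tissue, and depth lowers r for sparse genes, so these values are a description. *Hspb2* and *Hspb3* had too few UMIs per spot to be ranked.

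Partners of the family were described from lists taken up with the members. Over all genes, 41.2% in Control and 32.7% in Loaded were at least 0.5 higher in slow-fibre-rich spots, and the counts of these short lists are to be read against that. Of 6 genes of chaperone-assisted autophagy, 5 were in the files and passed 50 UMIs, and 2 in Control and 3 in Loaded were at least 0.5 higher in slow-fibre-rich spots, with none as much lower. *Flnc*, filamin C and a client of that pathway, had log2 ratios of 1.18 (0.97 to 1.395) and 1.47 (1.24 to 1.69), *Synpo2* of 0.28 and 0.68, and *Sqstm1*, the autophagy receptor p62, of 0.15 and -0.02. *Bag3*, the partner of *Hspb8*, was looked up after its values were seen and had 1.02 (0.54 to 1.49) and 1.08 (0.55 to 1.59). Both estimates were above those of *Hspb8*, with intervals that overlap in Control and meet near 0.55 in Loaded. Of the Z-disc and filament genes, 2 of 5 in Control and 4 of 5 in Loaded were higher and none lower: *Actn2* had 2.49 (2.36 to 2.63) and 2.25 (2.15 to 2.35), *Des* (desmin) 0.24 and 0.56, and *Ldb3* -0.30 and 0.37. *Flnc* is in this list as well as in the autophagy list and is counted as higher in both. Of the general heat shock genes, 2 of 4 and 2 of 5 tested were higher and none lower, with *Dnajb1*, a co-chaperone, at 1.00 (0.45 to 1.54) and 1.00 (0.37 to 1.61), and the mitochondrial chaperones *Hspd1* at 0.59 and 0.51 and *Hspe1* at 0.44 and 0.36. *Cryaa*, *Hspb9* and *Odf1*, members of the family known from lens and testis, had 7, 15 and 8 UMIs over both sections together.

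Per UMI, muscle spots as a whole held more *Hspb7*, *Cryab*, *Hspb6*, *Hspb1* and *Hspb3* in the Loaded section, and less *Hspb8* and *Hspb2*. *Hspb7* was at 7.57 per 10000 in Control and 23.8 in Loaded muscle spots, a log2 ratio of 1.65 (1.60 to 1.70), *Cryab* at 11.9 and 26.1 (1.13, 1.08 to 1.17), *Hspb6* at 15.02 and 28.8 (0.94, 0.90 to 0.98) and *Hspb1* at 1.15 and 2.21 (0.94, 0.79 to 1.09). *Hspb8* was at 4.44 and 3.57 (-0.31, -0.41 to -0.21), *Hspb2* at 1.22 and 0.915 (-0.42, -0.62 to -0.22) and *Hspb3* at 0.221 and 0.303 (0.45, 0.07 to 0.83). At least 0.5 higher were 4 of 7 members, against 43.3% of all 10037 genes tested, and 0 of 7 were as much lower, against 5.59%. The median of all genes was itself at 0.42, and that of the members at 0.94. Per muscle list UMI, a scaling that moved every ratio by 0.48, *Hspb2* and *Hspb8* turned to 0.06 and 0.17, and with TMM factors, which moved every ratio by -0.50, *Hspb3* turned to -0.04. Single quadrants weighed heavily: without the upper right of Loaded, where the slow share was 29.2%, *Hspb7* was at 0.94, *Cryab* at 0.49 and *Hspb6* at 0.47. There 2 of 7 members were at least 0.5 higher, and the share of all genes in that setting is not given. Without the lower left of Control, *Hspb7* was at 3.05, *Cryab* at 1.82, *Hspb6* at 1.84 and *Hspb8* at 0.10. The fibre types of the sections differed as well: the slow genes made up 0.8915% of slow and fast UMIs in Control and 7.75% in Loaded muscle spots, and the median spot had a slow share of 0.0548% and 1.55%.

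**Figure D3:**
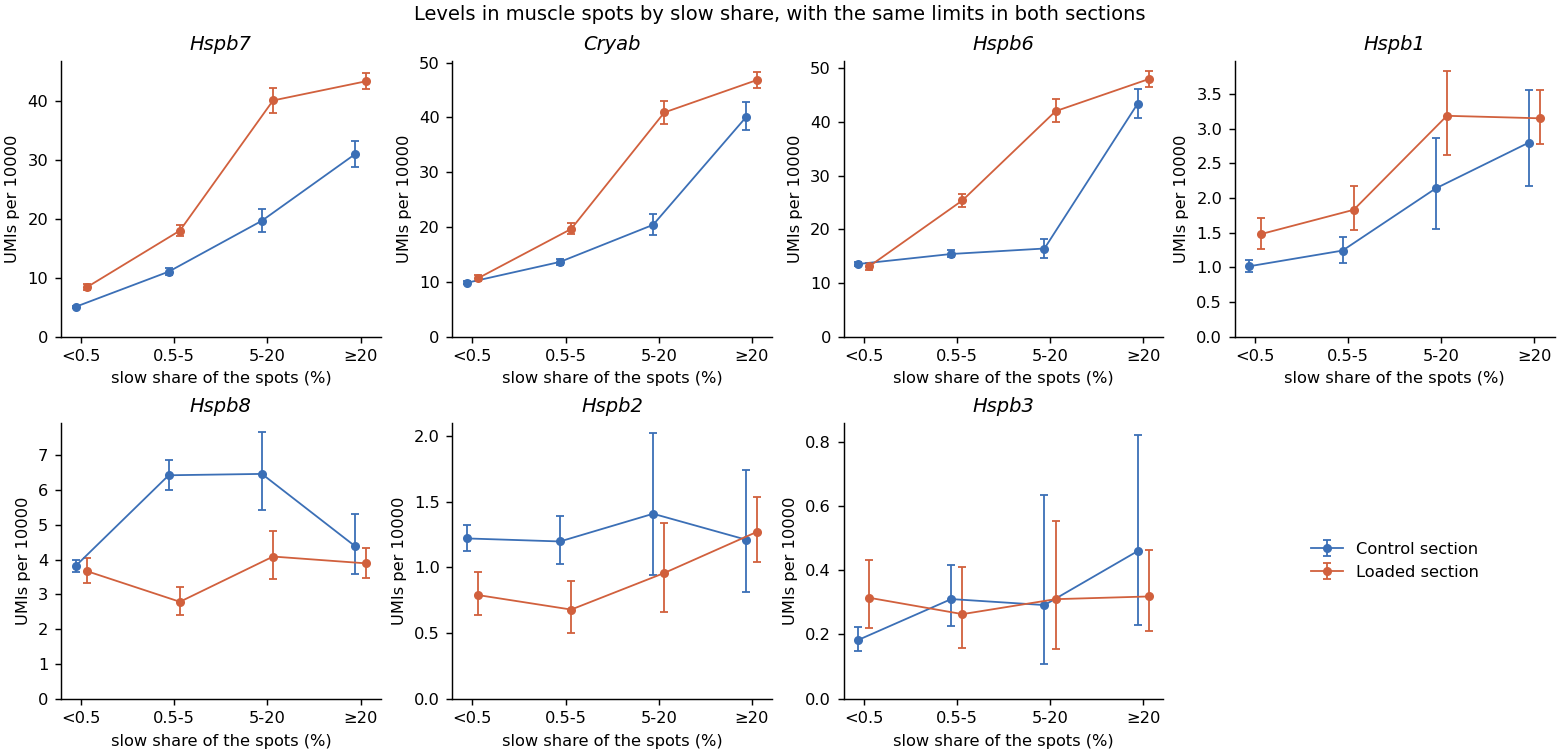
Level of each member in UMIs per 10000 (vertical axis, from 0) in muscle spots grouped by slow share with the same limits in both sections (horizontal axis, percent), Control in blue and Loaded in red-orange; bars are exact 95% intervals. For *Cryab* and *Hspb6* the sections lie closer together under 0.5% and at 20% and over than in between, and *Hspb8* is higher in Control from 0.5 to 20%.

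Spots were therefore also compared within bins of slow share that are the same in both sections, an alternative chosen after the values were seen. In spots with a slow share under 0.5% (777 Control, 263 Loaded), *Hspb6* was at 13.5 and 13.1 per 10000, a log2 ratio of -0.05 (-0.13 to 0.03), and *Cryab* at 9.82 and 10.65 (0.12, 0.03 to 0.21). *Hspb7* was still higher in Loaded, at 5.05 and 8.36 (0.73, 0.62 to 0.83), and so was *Hspb1*, at 1.015 and 1.48 (0.54, 0.29 to 0.79), with all genes at a median of 0.23 and the members at 0.12. In this bin 3 of 7 members were at least 0.5 higher, against 31.5% of all genes, and 1 of 7, *Hspb2* at -0.63 (-0.96 to -0.31), was as much lower, against 9.82%. In spots with a slow share of 20% and over (41 Control, 175 Loaded), *Hspb6* was at 43.4 and 48.0 per 10000 (0.15, 0.05 to 0.25), *Cryab* at 40.1 and 46.8 (0.22, 0.12 to 0.33) and *Hspb7* at 30.9 and 43.3 (0.49, 0.37 to 0.60). None of the 6 members with at least 50 UMIs was past 0.5 in that bin, against 14.7% of all genes higher and 13.1% lower, and the median of all genes was 0.00. In between, from 5 to 20% (39 Control, 84 Loaded), the sections were farthest apart for *Hspb6*, at 16.4 and 42.0 per 10000 (1.355, 1.184 to 1.530), and for *Hspb7* and *Cryab* the log2 ratio was 1.03 and 1.00. The fast side of these spots differed too, since the *Myh2* share was 8.27% in Control and 34.3% in Loaded spots of that bin, and its part in the difference was not tested. *Myh2* was taken up for its likeness to these 3 genes, so its share is no separate evidence. *Hspb8* was lower in Loaded spots from 0.5 to 5%, at 6.42 and 2.79 per 10000 (-1.205, -1.433 to -0.983), above only 1.53% of genes, while under 0.5% its ratio was -0.06 (-0.21 to 0.10).

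*Hspb7*, *Hspb6*, *Cryab* and *Hspb1* were higher near bone in the Control section and lower near bone in the Loaded section, while *Hspb8* was higher near bone in both. Muscle spots within 500 μm of a bone spot (240 Control, 278 Loaded) were compared with those farther than 1000 μm (590 Control, 307 Loaded). Near bone here means near the listed bone spots between the inner pins. Muscle beside bone beyond the pins can thus count as far. In Control, *Hspb7* was at 9.38 per 10000 near bone and 4.76 far from it, a log2 ratio of 0.98 (0.88 to 1.08), and *Hspb1*, *Hspb8*, *Hspb6* and *Cryab* had 0.52, 0.46, 0.44 and 0.42. In Loaded, *Hspb7* was at 15.3 near and 31.3 far (-1.04, -1.12 to -0.96), *Hspb6* at 20.1 and 37.2 (-0.89), *Cryab* at 18.7 and 32.4 (-0.80) and *Hspb1* at 1.72 and 2.64 (-0.62), whereas *Hspb8* was at 3.99 and 3.07 (0.38, 0.18 to 0.57). *Hspb2* and *Hspb3* did not differ beyond counting error, with -0.01 (-0.27 to 0.24) and -0.33 (-1.06 to 0.35) in Control and -0.08 (-0.48 to 0.31) and -0.36 (-1.10 to 0.36) in Loaded. At least 0.5 higher near bone were 2 of 7 members in Control, against 19.5% of all genes, and 0 of 7 in Loaded, against 22.0%. As much lower were 0 of 7 in Control, against 3.75%, and 4 of 7 in Loaded, against 8.09%. The fibre types lay differently as well, with a slow share of 2.11% near and 0.0817% far in Control and of 6.51% near and 9.65% far in Loaded. The *Myh2* share was 2.22% near and 11.65% far in Loaded and is not given for Control. *Myh2* was taken up for its likeness to *Hspb6*, *Cryab* and *Hspb7*, so its share is no separate evidence. Among spots with a slow share under 0.5%, *Hspb7* was at 0.22 (0.06 to 0.37) in Control and 0.25 (0.03 to 0.48) in Loaded, and *Cryab* at -0.15 (-0.26 to -0.03) and 0.65 (0.44 to 0.87). *Hspb6* and *Hspb1* did not change sign in these spots of Loaded. *Hspb8* was above 0 there in both, at 0.35 (0.17 to 0.51) and 0.55 (0.20 to 0.90). Some of the near and far differences also depended on single quadrants. Without the lower left of Control, *Hspb7* was at 0.03, *Cryab* at -0.38, *Hspb8* at -0.05 and *Hspb1* at -0.79, and without its upper right *Hspb6* was at -0.21. Without the upper right of Loaded, *Hspb7* was at 0.01 and *Cryab* at 0.23. In Loaded, *Hspb6* and *Hspb1* stayed below 0 with each quadrant left out, at -1.57 to -0.264 and -1.015 to -0.166.

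In the bone spots, most members were lower in the Loaded section, as were the muscle genes. Values there are UMIs per unit of scran size factor, the scaling the authors used, with summed factors of 154 and 123. *Hspb2* was at 0.519 in Control and 0.163 in Loaded (80 and 20 UMIs), a log2 ratio of -1.67 (-2.46 to -0.95). *Hspb8* was at 1.28 and 0.562 (198 and 69 UMIs, -1.19, -1.61 to -0.79) and *Hspb6* at 5.46 and 2.67 (841 and 328 UMIs, -1.03, -1.22 to -0.85). *Cryab* was at 4.90 and 3.10 (756 and 381 UMIs, -0.66, -0.84 to -0.48) and *Hspb1* at 0.636 and 0.423 (98 and 52 UMIs, -0.59, -1.10 to -0.09). *Hspb7* was at 3.09 and 2.82 (476 and 346 UMIs), a log2 ratio of -0.13 (-0.34 to 0.07), and *Hspb3*, with 14 and 9 UMIs, was too low to be tested. At least 0.5 lower were 5 of the 6 members tested, against 23.9% of all 3914 genes, and 0 of 6 were as much higher, against 21.5%. The median of all 7 members was -0.66 and that of all genes -0.02. Of the 27 muscle genes, 21 were at least 0.5 lower and none higher, with a median of -1.03, so the muscle part of these spots moved with the members and its part in their ratios was not tested.

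**Figure D4:**
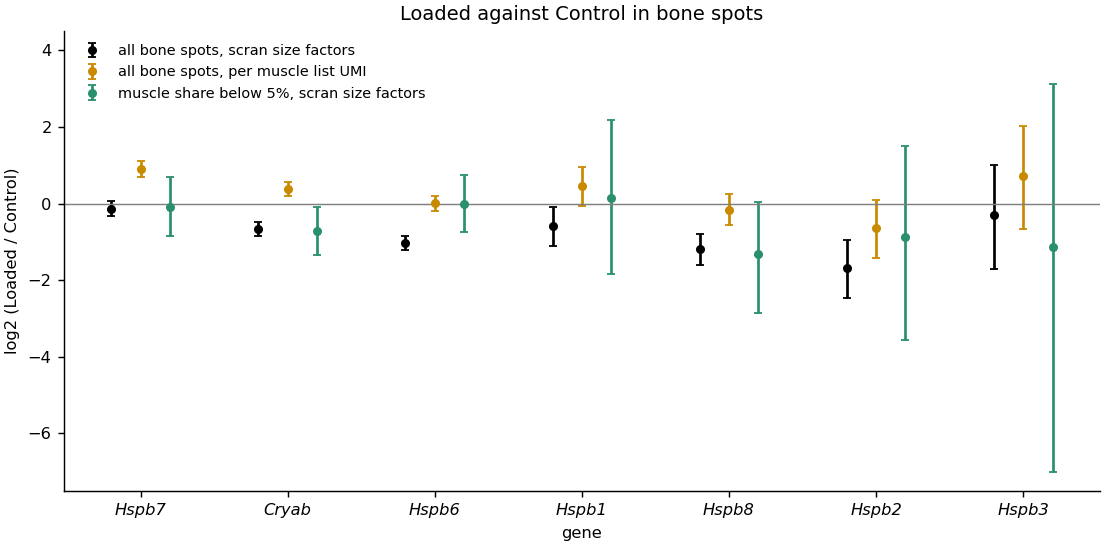
Log2 ratio of Loaded over Control in the bone spots for each member, with exact 95% intervals: all bone spots by scran size factors (black), all bone spots per muscle list UMI (yellow), and bone spots with a muscle share below 5% by scran size factors (green). By size factors 5 members lie between -0.59 and -1.67, *Hspb3* at -0.31 and *Hspb7* at -0.13. Per muscle list UMI, the intervals of *Hspb7* and *Cryab* lie above 0 and those of the other members include 0.

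Per UMI of the muscle list, a scaling that moved every ratio by 1.04, the order of the members stayed and the zero shifted. *Hspb7* was then at 0.90 (0.70 to 1.11), *Cryab* at 0.38 (0.19 to 0.56), *Hspb1* at 0.45 (-0.06 to 0.95) and *Hspb6* at 0.01 (-0.18 to 0.19), whereas *Hspb8* was at -0.16 (-0.57 to 0.25) and *Hspb2* at -0.64 (-1.42 to 0.09). In the bone spots with a muscle share below 5% (13 Control, 19 Loaded), *Hspb7* had 30 and 31 UMIs (-0.08, -0.86 to 0.69) and *Hspb6* had 32 and 35, a ratio of 0.999 with a log2 interval from -0.73 to 0.74. *Cryab* had 57 and 38 UMIs there (-0.72, -1.35 to -0.10) and *Hspb8* 16 and 7 (-1.32, -2.85 to 0.04). Within the same section, bone spots held more of the members per muscle UMI than muscle spots in Control, by log2 ratios from 0.77 (0.56 to 0.98) for *Hspb8* to 1.70 (1.383 to 2.004) for *Hspb1*. This scaling raises every gene in bone spots, whose muscle share was 17.0% against 36.3% in muscle spots of Control and 8.99% against 26.0% in Loaded. In Loaded, *Hspb7* and *Cryab* had ratios of 0.04 (-0.12 to 0.20) and 0.05 (-0.11 to 0.19), *Hspb6* of -0.31 (-0.48 to -0.15) and *Hspb1* of 0.73 (0.30 to 1.14). *Hspb8* was at 0.45 (0.08 to 0.80) there, and *Hspb2* at 0.63 (-0.11 to 1.28) and *Hspb3* at 1.07 (-0.10 to 2.06) on 20 and 9 UMIs in bone spots. Set against all genes, *Hspb1* stood above 51.7% in Control and 10.7% in Loaded, and *Hspb6* above 25.25% and 1.01%.

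**Figure D5:**
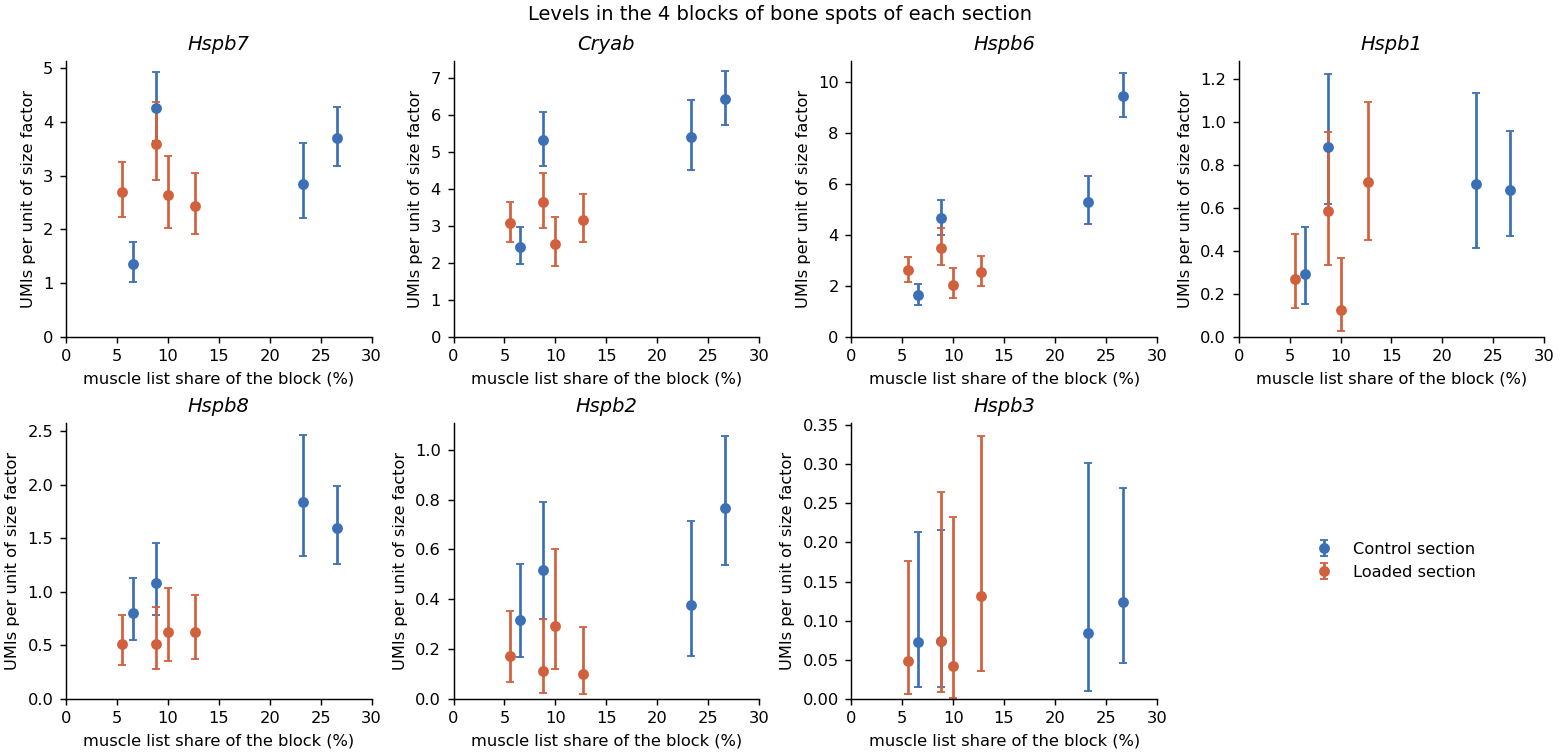
Level of each member, in UMIs per unit of size factor, in the 4 blocks of bone spots of each section (Control blue, Loaded red-orange) against the muscle list share of the block in percent; bars are exact 95% intervals. The Loaded blocks of *Hspb8* lie between 0.511 and 0.626, below all Control blocks, and those of *Hspb7* and *Cryab* lie within the Control range.

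The bone spots of each section were cut into 4 blocks to show the spread within it. *Hspb8* was at 0.801 to 1.84 in the Control blocks and at 0.511 to 0.626 in the Loaded blocks, and *Hspb2* at 0.316 to 0.765 and at 0.0984 to 0.292. Every Loaded block was thus below every Control block for these 2 of the 6 members tested, against 4.57% of all genes, and 0 of 6 had every Loaded block above, against 7.69%. The intervals of single blocks still met, with 0.552 to 1.13 for *Hspb8* in the upper right Control block and 0.350 to 1.03 in the lower left Loaded block. For *Hspb2* they were 0.168 to 0.540 and 0.117 to 0.602 in the same blocks, and each Loaded block held only 3 or 7 of its UMIs. *Hspb6* was at 1.63 to 9.47 in Control and 2.04 to 3.48 in Loaded blocks, *Cryab* at 2.43 to 6.43 and 2.50 to 3.63, *Hspb7* at 1.36 to 4.25 and 2.43 to 3.59, and *Hspb1* at 0.291 to 0.885 and 0.125 to 0.722, so the blocks of these 4 overlapped. The Control blocks differed most among themselves: the lower left, with a muscle share of 26.6%, held *Hspb6* at 9.47 and the upper right, with 6.55%, at 1.63. The Loaded blocks had muscle shares of 5.53 to 12.7%. Without the lower left Control block, the log2 ratio of *Hspb6* was -0.44 and that of *Cryab* -0.44. Then 3 members were at least 0.5 lower in place of 5, and the share of all genes in that setting is not given. Of the partner lists, the autophagy genes had 1 of 5 and the Z-disc genes 4 of 5 at least 0.5 lower in Loaded bone spots, against 23.9% of all genes, with *Des* at -1.03 (-1.15 to -0.91), *Ldb3* at -1.58 (-1.84 to -1.33), *Flnc* at -0.63 (-1.03 to -0.24) and *Actn2* at 0.16 (-0.08 to 0.39). The 1 autophagy gene is *Flnc*, which is counted in both lists. Of 4 heat shock genes tested, 1 was higher, against 21.5% of all genes: *Dnajb1* at 1.22 (0.61 to 1.86).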

How the data were processed

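Femurs of mice were fixed, decalcified and embedded, and 1 longitudinal section of a Control and 1 of a Loaded femur, out of 4 operated mice, were processed with the Visium FFPE probe assay. The authors made the deposited UMI counts per gene and spot with Space Ranger (2.0.0 per the file headers) on mm10, and named R 4.3.1 and Seurat in the submitters' processing notes. The counts were used as deposited, and the authors' list gave the bone spots. The members and gene lists were chosen with earlier results of these data known.

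Counts were summed over spots of a class and divided by the class's total UMIs, or in bone spots by summed scran size factors. Intervals were exact (Poisson for levels, Clopper-Pearson for shares, conditional binomial for ratios). A gene was tested with at least 50 UMIs and called at a log2 ratio of at least 0.5 in either direction. A listed 0 was set against a floor of 3 counts. Named genes were the 7 members, the 3 genes most like each, and at most the 3 most abundant genes of each partner list. *Bag3* falls outside this rule and was named after its values were seen. Spots under 500 UMIs or 250 genes (64 Control, 5 Loaded) were left out of the muscle classes. *Hspa8* and *Hsf1* of the partner lists were not analysed here. Alternatives were other scalings, spot weights, class limits and distances, and leaving out each quadrant or block. The ratio script was tested on simulated data. Tools were Python 3.11.15 (numpy 2.4.6, scipy 1.17.1, pandas 2.3.3, matplotlib 3.10.9) and R 4.3.3 (scran 1.30.0, edgeR 4.0.16 for TMM factors).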

Additional observations from a re-analysis of the deposited data

Results flagged for a closer look

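Muscle near the listed bone spots differed from muscle far from them in opposite directions in the sections. The log2 ratio of near over far was 0.98 in Control and -1.04 in Loaded for *Hspb7*, 0.44 and -0.89 for *Hspb6*, 0.42 and -0.80 for *Cryab*, and 0.52 and -0.62 for *Hspb1*. Some of these directions changed without single quadrants or among spots with a low slow share, and others did not. In Loaded, with each quadrant left out, *Hspb6* stayed at -1.57 to -0.264 and *Hspb1* at -1.015 to -0.166. With 1 quadrant left out, *Hspb7* was at 0.03 in Control and 0.01 in Loaded, and *Hspb1* at -0.79 in Control. Among spots with a slow share under 0.5%, *Hspb7* was above 0 in both sections, and *Cryab* was below 0 in Control and above 0 in Loaded. *Hspb6* and *Hspb1* did not change sign in these spots of Loaded. Per muscle list UMI, *Hspb6* was higher in bone than in muscle spots of Control, by a log2 ratio of 1.10, and lower in Loaded, at -0.31. The lower muscle share of bone spots raises every gene in them under this scaling. With 1 section in each group these differences between the sections were not tested.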

How the results depend on the processing

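No paired analysis was possible because each group has 1 section. Of 636 recomputed values, 374 moved by less than their interval or spread, 252 moved farther, and 10 that had been past 0.5 changed sign. Other scalings move every gene alike, and the causes of the other changes were not tested. The counts of members below are not set against all genes under the same setting, so they describe the members only. In slow-fibre-rich over fast spots, for example, muscle list UMIs raised the ratio of every gene by 0.65 in Control and 0.88 in Loaded.
In slow-fibre-rich over fast spots of Control, the median log2 ratio of the members was 0.78 by scran, 0.82 without the 20 most abundant genes and 1.86 by muscle list UMIs, and without single quadrants 0.90 to 1.20 (6 to 6 members past 0.5). With a minimum of 10 UMIs, 5233 genes were past 0.5. In Loaded it was 0.72 without the top genes, 1.96 by muscle list UMIs (7 members) and 1.67 at a muscle share of at least 20%, and 0.92 to 1.15 without quadrants (4 to 5 members), with 3962 genes at 10 UMIs.
Near over far in Control, the median was 0.25 by scran (1 member), 0.31 without the top genes (1 member), 0.61 by muscle list UMIs (5 members), 0.23 at a muscle share of at least 20% (0 members), 0.52 at 300 and 1500 μm (4 members) and 0.16 at a slow share under 0.5% (0 members), and -0.057 to 0.44 without quadrants (0 to 2 members), with 2996 genes at 10 UMIs. *Hspb1* was at -0.79 (without the lower left) to 0.56 over the left-out quadrants. In Loaded, at a slow share under 0.5%, the median turned to 0.25, *Hspb7* to 0.25 and *Cryab* to 0.65 (1 member lower), and without quadrants the median was -1.02 to 0.014 (0 to 4 members lower), *Hspb7* -1.78 to 0.014 and *Cryab* -1.40 to 0.23, each highest without the upper right, and 1145 genes lower at 10 UMIs.
In bone spots, Loaded over Control, muscle list UMIs turned the median to 0.38, *Hspb1* to 0.45, *Hspb6* to 0.0064 and *Cryab* to 0.38 (1 member lower), and *Hspb1* was at 0.13 at a muscle share below 5%. Without single blocks the median was -0.97 to -0.44 (3 to 6 members lower), and 2459 genes were lower at 10 UMIs.
In muscle spots, Loaded over Control, the median was 0.57 by scran, 0.44 by TMM (2 members), 0.67 without the top genes, 1.42 by muscle list UMIs, 0.72 as a mean over spots and 0.79 at a muscle share of at least 5%. By slow share it was 0.12 under 0.5% (*Hspb6* at -0.046), 0.53 from 0.5 to 5%, 0.57 from 5 to 20% and 0.15 from 20% up (0 members). Without quadrants it was 0.47 (without the upper right of Loaded) to 1.17 (without the lower left of Control), with 2 to 5 members.
Depth limits *Hspb3*, and *Hspb2* in Loaded, where its mean was 0.38 UMI per muscle spot. In Control the mean of *Hspb2* was 0.81, against 0.77 for *Hspb1*. The intervals of *Hspb2* and *Hspb3* span 0 in near over far of both sections and in slow-fibre-rich over fast spots of Loaded.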
